A study of Mus musculus with 12 samples.

Results

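Histone transcripts were followed across the cell types of newborn Myt1l mutant and wild-type mouse cortex. The members were all genes of the cell by gene table whose symbol starts with Hist1h, Hist2h, Hist3h, Hist4h, H2af or H3f3, together with H1f0 and H1fx. These were 70 of 18879 genes. By symbol, 59 of them (starting with Hist) were taken as replication-dependent histone genes and 10 as variant histone genes, and H3f3aos is an antisense transcript that encodes no histone. Single-cell RNA was read from the prefrontal cortex of mice at P0, the day of birth, of the strain C57BL/6J by the sample labels and C57BL/6N by the methods of the study. The HET mice carried 1 and the HOM mice 2 copies of a Myt1l allele whose exon 6 lacks 7 bp, so that translation stops at residue 78, while WT mice carried none. Myt1l encodes a zinc finger transcription factor of neurons. Cells of 2 animals per genotype were pooled into 1 droplet library, and the 12 deposited samples are 4 runs of each of the 3 libraries. No difference between genotypes could therefore be tested against the spread between animals, no p-value is given, and every ratio compares 3 libraries. Genotype names follow the deposited cell table. A figure legend of the study instead gives the cell number of the HET library to wild-type mice, that of the HOM library to heterozygous mice and that of the WT library to homozygous mice, an order that would change every ratio below. Layer I neurons, described by the study as more frequent in homozygous mice, can be counted by the names of the cell table. LayerI [19-P] held 114 of 12072 HET, 237 of 13688 HOM and 71 of 10503 WT cells.

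Histones package DNA into nucleosomes, each a core of H2A, H2B, H3 and H4 that linker histone H1 closes. Replication-dependent genes are mostly transcribed in S phase, and their mRNAs end in a conserved stem-loop bound by SLBP in place of a poly(A) tail, although polyadenylated forms of several genes occur in cells that have left the cell cycle. Variant genes such as H3f3a and H3f3b give polyadenylated mRNA throughout the cell cycle and supply histones that are exchanged in non-dividing cells such as neurons.

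The HET, HOM and WT libraries held 12072, 13688 and 10503 cells, with a median of 1099, 1330 and 1045 molecules per cell. Between 411 and 452 cells per library carried a barcode also present in another library. Xist, the RNA of the inactive X chromosome, was found in 2 HET, 1 HOM and 2121 WT cells, so that the sex of the animals differed between the libraries. Myt1l averaged 630.0 CPM in HET, 1038 CPM in HOM and 479.2 CPM in WT over the 4 layer types described next, a level that does not check a 7 bp deletion. Every level below is given in CPM, the depth-corrected value of a gene summed over the cells of a type in 1 library and scaled to a total of 1000000, with no correction for transcript length. Of 21 cell types, 18 had at least 100 cells in every library, among them 4 types of layer II to VI neurons, LayerII-IV [1-P], LayerII-IV [4-P], LayerV-VI [12-P] and LayerV-VI [18-P]. The projection neuron, striatal, astrocyte, oligodendrocyte, microglia and endothelial marker sums were each highest in a type of the matching name in all 3 libraries. Other lists went against the names. The sum of 9 ganglionic eminence and interneuron genes was 1697 CPM in HET, 1417 CPM in HOM and 1963 CPM in WT in Ganglionic eminences [9-P], below the 4191 CPM (HET) and 4867 CPM (WT) of Int4 [6-P] and the 3627 CPM of Int3 [11-P] in HOM. Intermediate progenitor genes were highest in Ganglionic eminences [9-P] in HET and HOM. Among the 18 types, Cajal-Retzius genes were highest in Int2 [14-P] in all 3 libraries. LayerI [19-P], with 71 WT cells, was not among the 18, so this list does not bear on its name. The deposited name is kept here for the type with the highest sums of G2/M and of S phase genes.

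The stem-loop is shown for the replication-dependent genes that results turn on, because capture by oligo-dT favours transcripts that run past it to a poly(A) tail. Capitals mark the stem-loop, read 5′ to 3′ from the GENCODE M21 transcripts (mm10), with the bases on either side in lower case.
Hist1h1e: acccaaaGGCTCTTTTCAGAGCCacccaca
Hist1h2ae: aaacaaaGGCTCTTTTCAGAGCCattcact
Hist3h2ba: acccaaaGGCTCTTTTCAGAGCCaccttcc
Hist1h4d: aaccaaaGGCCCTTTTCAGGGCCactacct
Hist1h3e: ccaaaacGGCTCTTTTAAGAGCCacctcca
Hist1h1c: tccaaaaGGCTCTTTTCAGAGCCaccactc
Hist1h1d: ctcaaacGGCTCTTTTCAGAGCCacccaca
Hist2h2ac: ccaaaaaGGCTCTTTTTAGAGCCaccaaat
Hist1h2ab: aaacaaaGGCTCTTTTCAGAGCCacccaca
Hist1h2ap: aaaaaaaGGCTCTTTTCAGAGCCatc
H2afx: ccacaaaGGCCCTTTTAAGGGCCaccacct
The H4 gene Hist1h4d has a stem that starts with GGCCC, as does H2afx, the single variant gene in which a stem-loop was found. The others shown here start with GGCTC. The annotated transcript ended 3 bases after the stem-loop in Hist1h2ap and 11 bases after it in Hist1h2ab. It ran on for 151 bases in Hist1h2ae, 169 in Hist3h2ba, 770 in Hist1h4d and 1153 in Hist1h1e. A stem-loop was found in the annotated transcript of 38 of the 59 replication-dependent genes, and 20 genes with at least 100 further bases held 71.5% of the summed value of all 59. For Hist1h1b and Hist1h1a the annotated transcript held none.

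Promoters are shown for 3 replication-dependent genes and for H1fx and H3f3a, to set the elements of both classes side by side. Each line gives the 200 bases before the RefSeq transcription start in GRCm38.p6 (mm10), 5′ to 3′ on the strand of the gene. Capitals mark matches on either strand to CCAAT (the CCAAT box), to the TATA box word TATAAA, to the octamer of H2B promoters, ATTTGCAT, and to AAACACA, an element of H1 promoters.
Hist1h1e (chr13:23622559-23622758, - strand): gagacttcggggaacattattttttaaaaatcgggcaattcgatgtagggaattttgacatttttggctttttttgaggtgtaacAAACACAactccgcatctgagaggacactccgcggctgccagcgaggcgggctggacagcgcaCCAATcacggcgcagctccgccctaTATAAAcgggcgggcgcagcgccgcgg
Hist1h1b (chr13:21780626-21780825, - strand): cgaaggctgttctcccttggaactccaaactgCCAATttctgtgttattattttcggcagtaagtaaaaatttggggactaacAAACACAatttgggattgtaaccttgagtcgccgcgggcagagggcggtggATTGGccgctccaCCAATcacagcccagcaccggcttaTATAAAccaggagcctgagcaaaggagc
Hist1h2ae (chr13:23571221-23571420, - strand): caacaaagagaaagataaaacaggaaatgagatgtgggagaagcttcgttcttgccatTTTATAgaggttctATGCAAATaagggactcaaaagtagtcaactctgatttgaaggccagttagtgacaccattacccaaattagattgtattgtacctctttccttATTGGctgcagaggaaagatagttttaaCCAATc
H1fx (chr6:87981483-87981682, - strand): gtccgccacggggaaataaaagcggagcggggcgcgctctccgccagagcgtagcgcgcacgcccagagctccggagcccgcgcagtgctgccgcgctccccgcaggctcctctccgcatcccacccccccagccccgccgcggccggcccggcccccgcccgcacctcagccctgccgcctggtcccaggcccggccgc
H3f3a (chr1:180813606-180813805, - strand): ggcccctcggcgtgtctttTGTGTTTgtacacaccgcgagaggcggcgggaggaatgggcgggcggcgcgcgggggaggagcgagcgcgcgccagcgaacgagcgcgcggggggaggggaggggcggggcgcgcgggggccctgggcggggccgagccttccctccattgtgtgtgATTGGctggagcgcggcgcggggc
Hist1h1e and Hist1h1b shared the H1 element, the CCAAT box and the TATA box in the same order, whereas the H1fx window held none of the 4 words. GENCODE M21 places the start of H1fx within its window, and a start of H3f3a upstream of its window. Over windows of 250 bases before to 50 after the start, CCAAT was found in 45 of 53 replication-dependent promoters (84.9%), in 6 of 9 variant promoters (66.7%) and in 37.4% of all 32817 promoters. TATAAA was found in 58.5% of replication-dependent promoters, in 1 of 9 variant promoters and in 13.6% of all. The octamer ATTTGCAT was found in 6 of 14 H2A and 5 of 14 H2B promoters, against 1.74% of all promoters. Divergent H2A and H2B genes can have overlapping windows, so 1 match can count for both families. Hist1h2ae and the H2B gene Hist1h2bg are such a pair. The TATAAA and ATTTGCAT matches shown for Hist1h2ae lie in the orientation of Hist1h2bg, which starts within that window. AAAGTT, the core word bound by MYT1L, was found in 12 of 53 replication-dependent promoters (22.6%), in none of the 9 variant promoters and in 14.1% of all. A match is a run of letters and not a shown binding site, and the promoters of clustered histone genes resemble each other in sequence.

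Members held 0.926% of the summed value of all genes, and 91.4% of that came from the 10 variant genes. H3f3b (chr11:116021912-116027962) and H3f3a (chr1:180800832-180813943), which encode the same H3.3 protein, were the 2 most abundant members. Among replication-dependent genes, Hist3h2ba, Hist1h1e, Hist1h2ae, Hist1h1b and Hist1h4d held 69.3% of the class sum. The first encodes an H2B, Hist1h2ae an H2A and Hist1h4d an H4, while Hist1h1e and Hist1h1b encode the linker histones H1.4 and H1.5. In all, 12 genes reached a summed value of 500 over all cells, the others being Hist1h3e, Hist1h2ab, Hist1h2ap, Hist1h1c, Hist1h1d, Hist2h2ac and Hist1h1a. A further 24 lay between 50 and 500, 23 lay below 50, and 1 of those, Hist1h2ah, was listed at 0. Clusters of 14, 5 and 28 genes on chromosome 13 held 15.3%, 2.4% and 57.2% of the class sum. Members of a family are near copies of one another, with a median of 59.4% of 50-base words shared with another member in genes below 500 and 31.5% in the others, and their values are uncertain where reads fit more than 1 copy. Hist1h1e (chr13:23620629-23622558, minus strand) overlaps Hist1h2be and Gm11398 on the same strand, and H1fx (chr6:87980421-87981637, minus strand) overlaps Gm47286. Reads shared by such pairs cannot be assigned with certainty.

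Replication-dependent transcripts were concentrated in the ganglionic eminence cells. Their sum in Ganglionic eminences [9-P] was 3012 CPM in HET, 3413 CPM in HOM and 4236 CPM in WT, the highest of the 18 types in every library. That type also held the highest sum of the 20 G2/M genes, at 9153, 8923 and 7942 CPM in HET, HOM and WT. The lowest sum of replication-dependent genes was in Endothelial1 [17-P], at 278, 516 and 441 CPM. Int4 [6-P] interneurons had 748, 1033 and 1029 CPM, and LayerII-IV [1-P] neurons 473 CPM in HET, 727 CPM in HOM and 648 CPM in WT. Against the mean of the 4 layer types, the ganglionic eminence sum was 6.63-fold higher in HET, 5.05-fold in HOM and 6.63-fold in WT. All ratios of types are descriptions, since the cells of a type share a library.

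**Figure D1:**
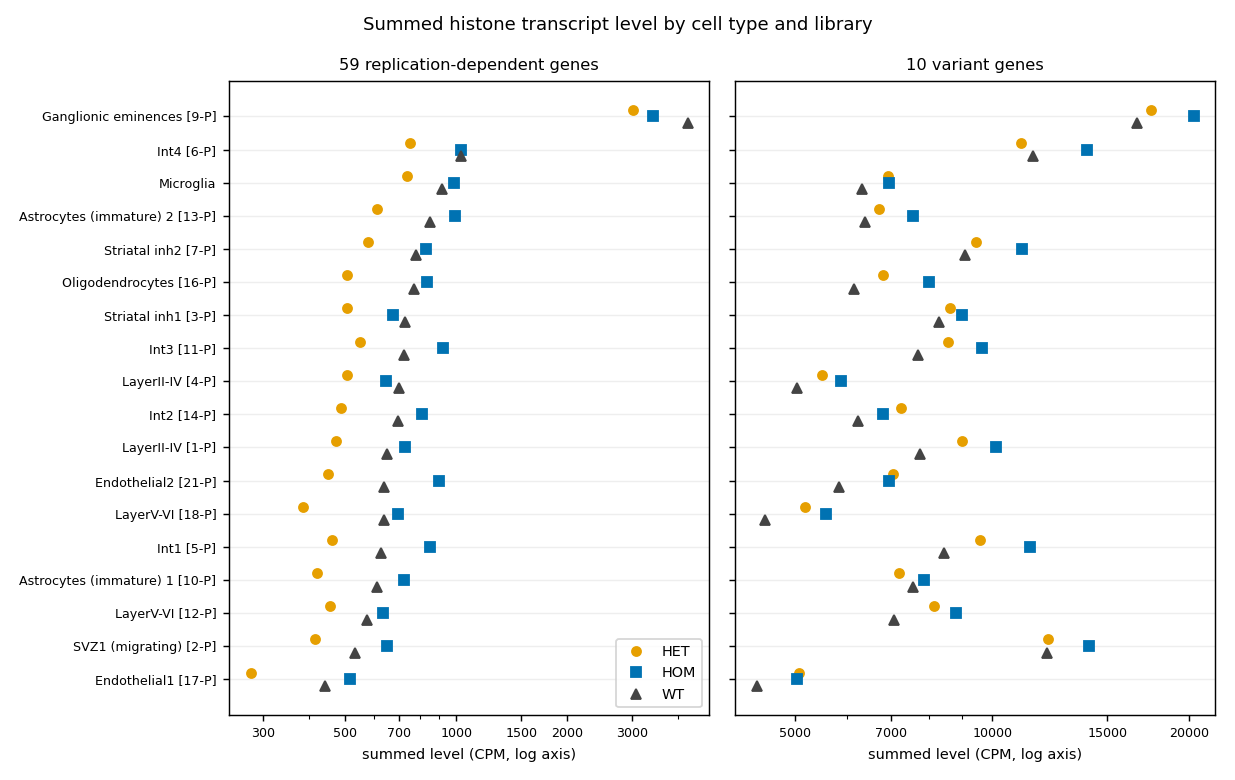
Summed level (CPM, log axis) of the 59 replication-dependent genes and the 10 variant genes in 18 cell types, with 1 point per library (HET, HOM, WT), types ordered by the replication-dependent sum in WT. Ganglionic eminences [9-P] stands apart in both panels, and every HET point of the replication-dependent panel lies left of its WT point.

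The linker histone gene Hist1h1b showed the widest contrast between ganglionic eminence cells and layer neurons among the named members in all 3 libraries. Hist1h1b reached 762 CPM in HET, 1004 CPM in HOM and 919 CPM in WT ganglionic eminence cells, which was 36.0, 34.2 and 23.0 times the layer mean. Hist1h1a (H1.1) was 22.9, 13.8 and 15.1 times the layer mean in HET, HOM and WT. Hist1h1e was at 534 CPM in HET, 716 CPM in HOM and 877 CPM in WT ganglionic eminence cells, 9.88, 5.45 and 13.4 times the layer mean, so that the contrast was narrowest in HOM. Hist1h1d was close to Hist1h1e, at 9.81, 5.84 and 13.2 times the layer mean in HET, HOM and WT. Hist1h1c showed less, at 3.72, 2.15 and 5.91 times. Among H2A genes, Hist1h2ap was 17.2, 10.5 and 12.4 times the layer mean. Hist1h2ae was 12.5, 7.84 and 8.56 times the layer mean and Hist1h4d 2.54, 1.97 and 2.84 times. Hist3h2ba ran the other way, at 50.5 CPM in HET, 100.2 CPM in HOM and 112 CPM in WT ganglionic eminence cells, 0.305, 0.555 and 0.731 times the layer mean. Its highest level was 267 CPM in SVZ1 (migrating) [2-P] in HET, 313 CPM in Int4 [6-P] in HOM and 266 CPM in Striatal inh2 [7-P] in WT, all types of young neurons. The ratio of Hist1h4d to Hist1h1b was 0.107, 0.11 and 0.185 in HET, HOM and WT ganglionic eminence cells, and 1.86, 1.78 and 1.44 in HET, HOM and WT LayerII-IV [1-P] neurons.

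**Figure D2:**
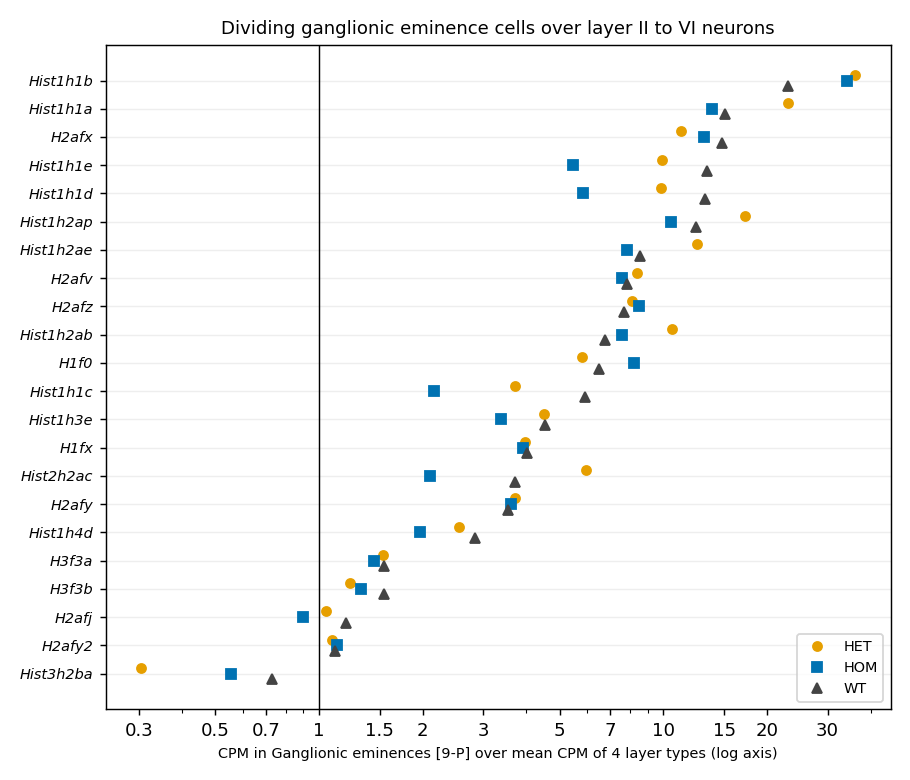
Level in Ganglionic eminences [9-P] over the mean level of the 4 layer types (ratio, log axis) for the 22 named members, with 1 point per library and genes ordered by the WT ratio. Hist1h1b has the highest ratios, from 23.0 to 36.0, H3f3a and H3f3b lie between 1.23 and 1.55, and Hist3h2ba lies below 1 in all 3 libraries.

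Variant genes split into a group that was highest in ganglionic eminence cells and a group that was not. H2afx encodes H2A.X, which is phosphorylated at DNA breaks, and its level in ganglionic eminence cells was 1067 CPM in HET, 1414 CPM in HOM and 1049 CPM in WT. That was 11.3, 13.2 and 14.8 times the layer mean. H2afz, which encodes H2A.Z.1, was at 5506, 6189 and 4688 CPM there, 8.09, 8.47 and 7.70 times the layer mean, and H2afv, which encodes H2A.Z.2, was 8.39, 7.57 and 7.83 times the layer mean. H1f0 (H1.0, a linker histone known from cells that stop dividing) was 5.82, 8.24 and 6.50 times the layer mean. The macroH2A gene H2afy was 3.72, 3.62 and 3.53 times the layer mean, and H1fx (H1.10) 3.97, 3.91 and 4.01 times. These 6 genes had their highest level of all 18 types in ganglionic eminence cells in every library.

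The H3.3 genes, H2afy2 and H2afj were spread more evenly. H3f3a was highest in Int4 [6-P] interneurons, at 3219 CPM in HET, 3939 CPM in HOM and 3190.0 CPM in WT. H3f3b was highest in SVZ1 (migrating) [2-P], at 6784, 7833 and 6984 CPM. H3f3b exceeded H3f3a in all 18 types of all 3 libraries, by 1.18 to 3.10-fold. H3.3 transcripts made up 34.6% of the member sum in HET, 33.0% in HOM and 33.2% in WT ganglionic eminence cells, and 78.0%, 76.8% and 73.1% in LayerV-VI [12-P] neurons. The second macroH2A gene, H2afy2, was highest in Int1 [5-P], at 359.8 CPM in HET, 376 CPM in HOM and 363 CPM in WT. H2afj, a replication-independent H2A of mammals, had a ganglionic eminence level of 1.05, 0.897 and 1.20 times the layer mean. The centromeric H3 gene Cenpa, not a member by symbol, was at 602 CPM in HET, 641 CPM in HOM and 507 CPM in WT ganglionic eminence cells.

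Within a cell type, cells with a transcript of the 20 G2/M genes were set against cells with none. In ganglionic eminence cells, 89.6% of HET, 87.6% of HOM and 81.0% of WT cells had one. Replication-dependent transcripts summed to 3261 CPM in HET, 3798 CPM in HOM and 5051 CPM in WT cells with a G2/M transcript, and to 787, 753 and 612 CPM in the cells without, a ratio of 4.14, 5.05 and 8.26. The cells without were few, 37 in HET, 55 in HOM and 103 in WT, and no shallower than the others, with a median of 4129, 6974 and 4163 molecules against 3934, 5829 and 3474. The same ratio was 2.41, 1.62 and 2.19 in Astrocytes (immature) 2 [13-P], 2.14, 2.55 and 2.71 in Oligodendrocytes [16-P], and 2.16, 1.92 and 3.16 in Microglia. In these 4 types it exceeded 1 in every library. Cells with a G2/M transcript were the deeper ones in all 3 libraries of Astrocytes (immature) 2 [13-P], with a median of 906 against 842 molecules in HET, 860.0 against 756.5 in HOM and 802 against 704 in WT. They were also deeper in HET Oligodendrocytes [16-P], at 1914.5 against 1355.5 molecules. In Microglia they were deeper in all 3 libraries, at 907 against 684 in HET, 826 against 812 in HOM and 746.5 against 741 in WT. The part of depth in these ratios was not tested. It was smaller in LayerII-IV [1-P] neurons, at 1.36, 1.18 and 1.26, and in SVZ1 (migrating) [2-P], at 1.08, 1.46 and 1.20, where cells with a G2/M transcript were the shallower ones.

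By gene, H2afx behaved like the replication-dependent class in this split. It was 6.67 times higher in HET, 19.6 times in HOM and 12.1 times in WT ganglionic eminence cells with a G2/M transcript than in those without, and from 3.56 to 19.6 times over the 4 types. Hist1h1b was from 3.03 to 11.8 times higher, Hist1h2ae from 1.72 to 11.4 times, Hist1h1e from 1.61 to 5.96 times and H2afz from 1.37 to 2.69 times, above 1 in all 4 types of all libraries. The summed variant genes were 1.11 to 1.71 times higher. H3f3a lay between 0.881 and 1.21 times. H2afy, though highest in ganglionic eminence cells, was lower in those with a G2/M transcript, at 0.743 times in HET, 0.929 in HOM and 0.913 in WT. In SVZ1 (migrating) [2-P], H3f3b was lower in cells with a G2/M transcript, at 0.70, 0.733 and 0.676 times the level of the others in HET, HOM and WT.

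**Figure D3:**
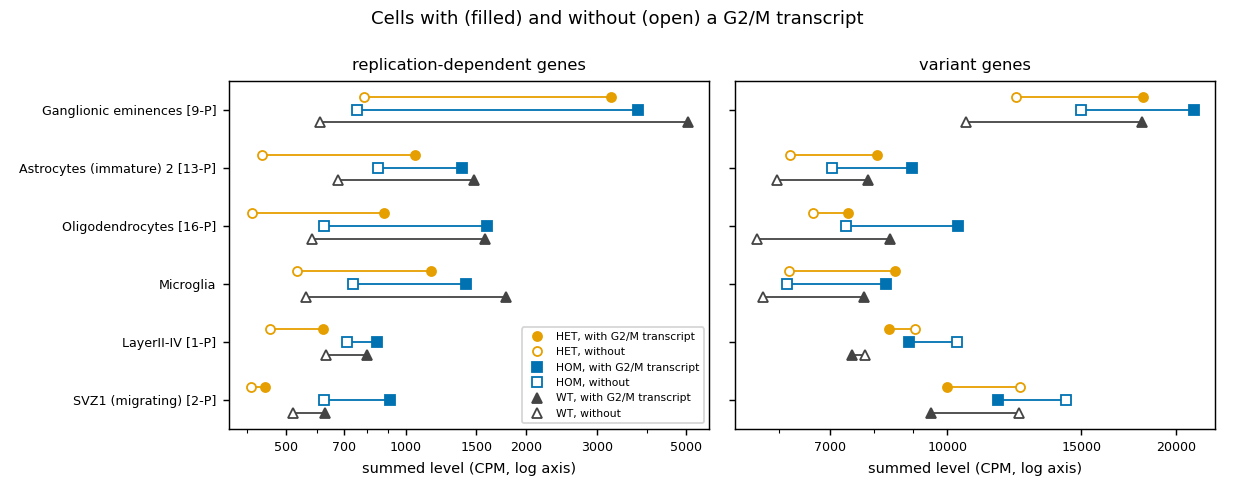
Summed level (CPM, log axis) of replication-dependent and variant genes in cells with (filled) and without (open) a G2/M transcript, by cell type and library. In Ganglionic eminences [9-P] the filled points of the replication-dependent panel lie 4.14 (HET), 5.05 (HOM) and 8.26 (WT) times above the open ones, and in SVZ1 (migrating) [2-P] the variant sum is lower in filled points.

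Replication-dependent transcripts were lower in the HET library than in WT in every cell type. Their sum was lower in 18 of 18 types, with a mean log2 ratio of -0.49 (0.714-fold) and a range of -0.73 in LayerV-VI [18-P] to -0.31 in Microglia. Genes are compared where their summed value over both libraries reached 50. With the cells of the 4 layer types joined, 19 replication-dependent genes could be compared, and all 19 were lower in HET. Of these, 13 (68.4%) were at least 1.5-fold lower, where 7.89% of all 10441 genes were. None was at least 1.5-fold higher, where 2.76% of all genes were, and 60.7% of all genes were lower in HET. The median log2 ratio was -0.88 for the 19 genes and -0.10 for all genes. Joining the layer types was decided after the values were seen, because 1 replication-dependent gene, Hist3h2ba, reached 50 in each of the 4 types separately.

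The lower HET levels spanned the H1, H2A, H3 and H4 families. The 3 H3 genes, Hist1h3e, Hist1h3f and Hist1h3c, were all at least 1.5-fold lower, as were 4 of 5 H2A genes, 3 of 4 H4 genes and 3 of 5 H1 genes. Hist1h2ap, an H2A gene, was at 7.70 CPM in HET, 10.95 CPM in HOM and 20.2 CPM in WT layer neurons, a log2 ratio of -1.39 in HET. Hist1h2ab, another H2A gene, was at 11.1, 13.8 and 25.6 CPM, a log2 ratio of -1.20 in HET. These are the 2 genes above whose annotated transcript ends within 11 bases of the stem-loop. Hist1h3c and Hist1h3f, with 74 and 365 bases after it, had log2 ratios of -1.27 and -1.23 in HET. Hist1h1e, with 1153, had -0.31. A link with the length of this end was not tested. Hist1h3e was at 11.5 CPM in HET, 22.4 CPM in HOM and 22.7 CPM in WT, a log2 ratio of -0.99 in HET. Hist1h4d was at 32.7, 57.5 and 60.0 CPM, a log2 ratio of -0.88 in HET, and it was lower in HET in all 6 types where it could be compared. Hist1h1b was at 21.4, 29.1 and 40.4 CPM, a log2 ratio of -0.92 in HET. Hist1h2ae, at 60.2 CPM in HET, 91.0 CPM in HOM and 90.4 CPM in WT, had a log2 ratio of -0.59 in HET and was lower in all 13 types where it could be compared. The 2 H2B genes were nearest to WT. Hist3h2ba was at 159.9 CPM in HET, 190.3 CPM in HOM and 160.3 CPM in WT, level with WT in HET (its mean log2 ratio over the 4 types taken separately was 0.09), and Hist1h2bc at 5.13, 11.5 and 5.57 CPM. The 16 genes on chromosome 13 had a median log2 ratio of -0.95 in HET, with 12 of 16 at least 1.5-fold lower, while 1 of the 3 genes elsewhere (Hist2h2ac, Hist3h2ba and Hist3h2a) was.

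**Figure D4:**
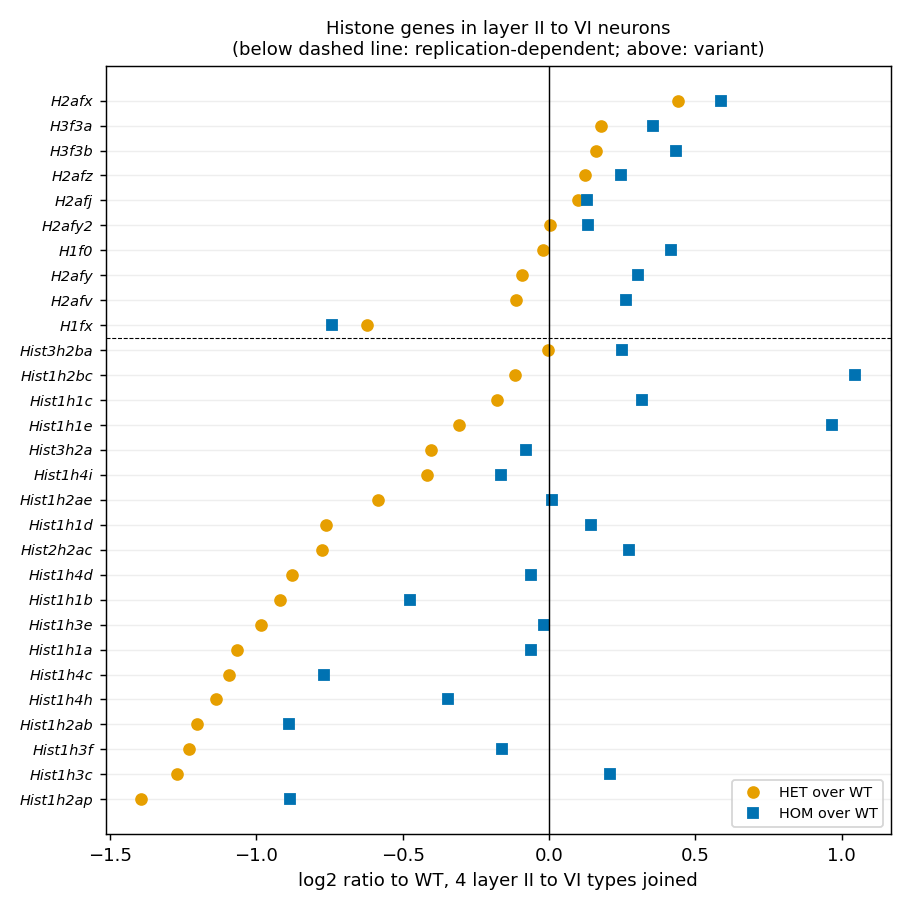
log2 ratio to WT in the 4 layer types joined for the 29 members that could be compared, HET (circles) and HOM (squares), with replication-dependent genes below the dashed line and variant genes above it. The HET ratios of all 19 replication-dependent genes lie below 0, from -1.39 (Hist1h2ap) to 0.00 (Hist3h2ba), and in HOM Hist1h1e and Hist1h2bc lie near 1.

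The HOM library did not show this pattern. The summed replication-dependent genes were higher in HOM in 15 of 18 types, with a mean log2 ratio of 0.15, and lower in Ganglionic eminences [9-P], LayerII-IV [4-P] and Striatal inh1 [3-P]. In the joined layer types 8 genes were higher and 11 lower in HOM, with a median log2 ratio of -0.06 against -0.11 for all 10367 genes. Hist1h1e and Hist1h2bc (10.5% of the 19) were at least 1.5-fold higher, where 4.53% of all genes were, and Hist1h2ap, Hist1h2ab and Hist1h4c (15.8%) at least 1.5-fold lower, where 12.3% of all genes were. Hist1h2ap had a log2 ratio of -0.88 and Hist1h2ab of -0.89 in HOM. Without Hist1h1e and Hist3h2ba, the sum over the other replication-dependent genes had a mean log2 ratio in the 4 layer types of -0.85 in HET and -0.22 in HOM, lower in 4 of 4 types in both. Over all 18 types, this sum was higher in HOM in 9 and lower in 9, with a mean log2 ratio of 6.7e-05. Over the 14 types outside the layers it was higher in HOM in 9, with a mean log2 ratio of 0.06. Without Hist3h2ba alone, the sum was higher in HOM in 13 of 18 types, with a mean log2 ratio of 0.12. Leaving out these 2 genes was decided after their values were seen. HET and HOM were compared with the same WT library, so the 2 comparisons are not independent.

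Of the 12 members compared in each of the 4 layer types in HOM, Hist1h1e differed most from WT. In LayerII-IV [1-P] it was at 61.7 CPM in HET, 145 CPM in HOM and 68.6 CPM in WT, and in LayerII-IV [4-P] at 71.5, 135 and 79.6 CPM. In LayerV-VI [12-P] it was at 38.5, 108 and 40.0 CPM in HET, HOM and WT, and in LayerV-VI [18-P] at 44.4, 138 and 73.6 CPM. HOM was the highest of the 3 libraries in each of the 4 types. The mean log2 ratio of HOM over WT was 1.04, rank 4 from the top among the 3388 genes compared in all 4 types. Over 17 types HOM was higher in 15 and lower in Ganglionic eminences [9-P] (log2 ratio -0.29) and Astrocytes (immature) 1 [10-P]. With the layer types joined, Hist1h2bc had the higher log2 ratio, 1.05 against 0.97 for Hist1h1e, from summed values of 64 in HOM and 27 in WT. HET was lower than WT in 11 of 12 types. The difference between HOM and HET was not tested. The ratio of Hist1h1e to Hist1h1b in LayerII-IV [1-P] was 3.32 in HET, 5.28 in HOM and 1.83 in WT, and 0.70, 0.713 and 0.955 in ganglionic eminence cells.

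H1fx, the linker histone gene whose promoter window above lacked the 4 words, was lower in both mutant libraries. With the layer types joined it was at 40.7 CPM in HET, 37.5 CPM in HOM and 62.7 CPM in WT, a fold of 0.649 in HET and 0.598 in HOM. It was the 1 of 10 variant genes (10.0%) at least 1.5-fold lower in either comparison. That share was near the 7.89% of all genes in HET and 12.3% in HOM. HET was below WT in 9 of 10 types and HOM in 11 of 11, and the level was 158 CPM in HET, 149 CPM in HOM and 249.6 CPM in WT ganglionic eminence cells. LayerV-VI [18-P] differed least, with 44.4, 35.7 and 43.5 CPM in HET, HOM and WT. H1f0, by contrast, was at 187 CPM in HET, 253 CPM in HOM and 189 CPM in WT joined layer neurons, and exceeded WT in 9 of 18 HET types and 15 of 18 HOM types.

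**Figure D5:**
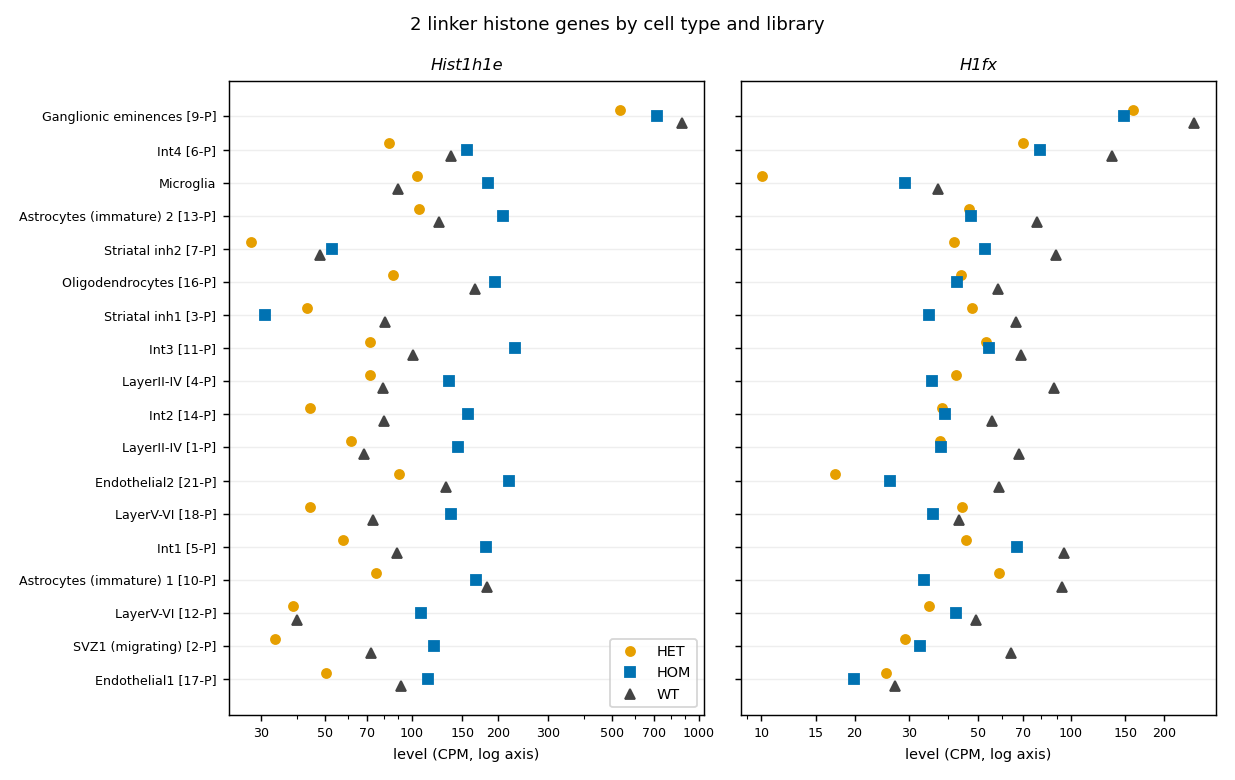
Level (CPM, log axis) of the linker histone genes Hist1h1e and H1fx in 18 cell types, with 1 point per library (HET, HOM, WT). HOM points of Hist1h1e lie to the right of the others in all 4 layer types (108 to 145 CPM) and not in Ganglionic eminences [9-P], while WT points of H1fx lie rightmost in most types.

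Most other variant genes were higher in HOM by small amounts, while in HET they were divided. In HET, H2afj was higher in 10 of 17 types, H2afy in 7 of 16 and H2afy2 in 7 of 15. HET exceeded WT in the variant sum of 16 of 18 types, with a mean log2 ratio of 0.12, and HOM did so in 18 of 18, with 0.25. That sum is weighted to H3f3b and H3f3a, the most abundant members. Of the members compared in each of the 4 layer types, 3 of 10 were higher in HET in all 4, where 20.9% of all 3248 genes were, and none was lower in all 4, where 23.8% of all genes were. These 3 were H2afx, H3f3b and H3f3a, with mean log2 ratios of 0.42, 0.25 and 0.19. A Y-linked transcript was found in 1865 of 12072 HET, 2086 of 13688 HOM and 603 of 10503 WT cells. Requiring one leaves out female cells, but also most HET and HOM cells, where Xist was almost absent. H3f3b was then at -0.0889 and H3f3a at 0.15 in HET. Of the 3 members that could still be compared, 1 was higher in all 4 layer types. The variant sum then had a mean log2 ratio of 0.0038 over the 18 types. The part of sex and of the smaller number of cells in these values was not tested. In HOM, 8 of 12 were higher in all 4 layer types, where 21.4% of all 3388 genes were, and none lower, where 25.6% of all genes were. Beside Hist1h1e these were H2afx (0.61), H3f3b (0.34), H3f3a (0.31), H2afy (0.29), H2afv (0.26), H2afz (0.25) and H2afj (0.20). The median over the members was 0.07 in HET and 0.26 in HOM, against -0.02 and -0.03 for all genes.

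H2afx led the variants in both comparisons. In LayerII-IV [1-P] it was at 117 CPM in HET, 122 CPM in HOM and 85.0 CPM in WT, and joined over the layer types at 99.2, 109.7 and 73.0 CPM, a log2 ratio of 0.44 in HET and 0.59 in HOM. HET exceeded WT in 13 of 15 types and HOM in 16 of 16. H3f3a was at 1870.0 CPM in HET, 2114 CPM in HOM and 1653 CPM in WT, higher in 17 of 18 and 18 of 18 types. H3f3b was at 3250.0, 3926 and 2907 CPM, above WT in 13 of 18 HET types and 17 of 18 HOM types. The H2A.Z genes differed from each other in HET, where H2afz was higher in 15 of 18 types and H2afv in 9 of 18, while both were higher in 17 of 18 types in HOM. H2afy2 was at 185 CPM in HET, 203 CPM in HOM and 185 CPM in WT joined layer neurons and so lay close to WT in HET.

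Outside the layer types, replication-dependent genes gave the same picture for HET. Over the 14 other types, 46 of 53 pairs of a replication-dependent gene and a type were lower in HET, where 24658 of all 50589 pairs were. Of the 53, 21 were at least 1.5-fold lower, where 7.36% of all pairs were. A further 2 were at least 1.5-fold higher, where 5.75% of all pairs were. The median log2 ratio was -0.43. In HOM, 48 of 72 pairs were higher, where 25268 of all 54550 pairs were. Of the 72, 15 were at least 1.5-fold higher, where 7.65% of all pairs were, and 8 at least 1.5-fold lower, where 12.8% were. The median log2 ratio was 0.20. A gene enters once per type, and Hist1h1e alone was higher in HOM in 15 of 17 types, layer types included. In ganglionic eminence cells alone, 12 of 13 genes were lower in HET, where 1946 of all 3885 genes were, and 7 at least 1.5-fold, where 8.01% were. In HOM, 11 of 13 were lower there, where 2267 of all 4015 genes were, and 6 at least 1.5-fold, where 17.8% were. The exception to both was the H4 gene Hist1h4i, named after its values were seen, at 74.7 CPM in HET, 60.5 CPM in HOM and 38.4 CPM in WT, from summed values of 34, 35 and 26. It was the 1 gene at least 1.5-fold higher there in each comparison, where 4.94% of genes were in HET and 6.95% in HOM.

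Genes that make or handle histones were called at shares set here against those of all genes. Of 16 genes for histone gene transcription and 3′ end processing, 5 were compared in all 4 layer types in HET, with 0 higher and 1 lower in all 4, and 4 in HOM, with 1 higher and 1 lower. Lsm1, of the complex that degrades these mRNAs, had mean log2 ratios of 0.42 in HET and 0.52 in HOM but not the same sign in all 4 types, and Ncbp1, a cap-binding subunit, had -0.16 and -0.33. Of 30 histone chaperones and exchange factors, 23 were compared in HET, with 2 higher and 5 lower in all 4, and 22 in HOM, with 1 higher and 7 lower. Over all genes, 20.9% were higher and 23.8% lower in HET, and 21.4% higher and 25.6% lower in HOM. The median log2 ratio of this list was -0.01 in HET and -0.11 in HOM. Srcap and Ep400, the motor subunits of the complexes that load H2A.Z, had mean log2 ratios of -0.43 and -0.47 in HET and -0.89 and -0.48 in HOM. Ubn2 had the lowest mean log2 ratio of the list in HET, at -0.49. It was below WT in 10 of 10 types in HET and 10 of 11 in HOM. Vps72 and Znhit1 of the same list had 0.12 and 0.16 in HET and 0.20 and -0.07 in HOM. Set, a histone chaperone, was lower in 18 of 18 types in both.

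Several values that mark library composition or chemistry also differed between the libraries, and their part in the results was not tested. Gm42418, a transcript that takes up ribosomal RNA reads, averaged 14020 CPM in HET, 14210 CPM in HOM and 28450 CPM in WT layer neurons and was lower in 18 of 18 types in both. AY036118 was at 161, 157 and 736 CPM and Lars2 at 1241, 945 and 2462 CPM, both lower in 18 of 18 types in HET and HOM alike. The 94 ribosomal protein genes had a mean log2 ratio of 0.07 in HET, above WT in 14 of 18 types, and of 0.19 in HOM, above WT in 18 of 18, the direction of the variant sum in both. Mitochondrially encoded genes had 0.07 in HET and -0.30 in HOM, below WT in 16 of 18 HOM types. Summed haemoglobin genes, which mark red blood cells, were at 864 CPM in HET, 1535 CPM in HOM and 1205 CPM in WT, above WT in 1 of 18 HET types and 17 of 18 HOM types. In cells with a Y-linked transcript, which leaves out female cells and most other cells, the replication-dependent sum had a mean log2 ratio of -0.67 in HET, lower in 15 of 18 types. In cells with no S or G2/M transcript, its mean over all 18 types was -0.44 for HET, lower in 17 of 18 types. The G2/M list itself had a mean log2 ratio of -0.15 in HET and -0.04 in HOM over the 18 types.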

How the data were processed

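Single-cell libraries of 1 pool of 2 animals per genotype were made with the Chromium 5′ v1 kit and, per the labels, aligned to mm10 with Cell Ranger 4.0.0 and handled in Seurat 4.0. Values per gene and cell, as deposited, are whole numbers of no stated unit (read as a score). Cell totals of 825 to 1952, narrower than the spread of molecules, showed that depth had been corrected before deposit. The planned reading as raw molecules, thinning, count models and counting intervals were therefore dropped. Also deposited were, for each cell, counts of molecules, the percent of mitochondrial RNA, a fraction for how sure the transferred type was, and the type itself, which was used unchanged. Tables of the authors' own comparisons, with log2 fold changes, p-values and fractions of expressing cells, were left out. Doublet handling by the study is not given in the sources used, and none were sought.

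Values were summed per library and type and divided by the total over all genes. Ratios were taken where the sum over both libraries reached 50, in types with at least 100 cells in every library, with no pseudocount. A gene was called where its 4 layer ratios shared a sign or it passed 1.5-fold. Members, lists and comparisons were chosen with earlier results of these data known. Named were every variant gene, Hist genes with a summed value of at least 500, members of groups of 5 or fewer, and up to 4 genes of each related list. Vps72 and Znhit1 were added after their values were seen. Alternatives were scaling by the median of ratios, removal of technical genes from the totals, minimums of 20 and 200, a pseudocount of 10 CPM, per-cell means, cells with at least 2000 molecules, with a Y-linked transcript, without S or G2/M transcripts or with a type probability of at least 0.9, and subtraction of length decile medians. Sequences are from RefSeq (GRCm38.p6) and GENCODE M21. Of the 70 members, 69 matched RefSeq and 62 a promoter. Python 3.11.15 with numpy 2.4.6, scipy 1.17.1, pandas 2.3.3 and matplotlib 3.10.9 was used, and the ratio step was tested on simulated data.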

Additional observations from a re-analysis of the deposited data

Results flagged for a closer look

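Hist1h1e, the H1.4 gene, differed in direction between layer neurons and ganglionic eminence cells of the HOM library, with a mean log2 ratio to WT of 1.04 in the 4 layer types and -0.29 in Ganglionic eminences [9-P]. In the other dividing types it was above WT, at 0.73 in Astrocytes (immature) 2 [13-P], 1.05 in Microglia and 0.23 in Oligodendrocytes [16-P]. H2afj was at 0.20 in the layer types and -0.22 in Ganglionic eminences [9-P] in HOM. H3f3b was at 0.25 in the layer types and -0.0619 in Ganglionic eminences [9-P] in HET. These differences between cell types were not tested.

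Types with too few cells for the comparisons also held histone transcripts. In LayerI [19-P], with 114 HET, 237 HOM and 71 WT cells, the replication-dependent sum was 606 CPM in HET, 1040.0 CPM in HOM and 816 CPM in WT, and the variant sum was 6810.0 CPM in HET, 6770.0 CPM in HOM and 6339 CPM in WT. In SVZ2 (migrating) [8-P] the replication-dependent sum was 335 CPM in 19 HET cells, 1407 CPM in 3 HOM cells and 559.5 CPM in 44 WT cells.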

How the results depend on the processing

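No paired analysis was possible because no file ties cells to animals, and for the same reason a replicate block could not be fitted and no replicate could be left out. Over 413 alternatives of 45 results, 323 values moved little, 76 moved and 14 changed sign. The cause was not tested unless fewer cells or genes are named. The summed replication-dependent genes stayed lower in HET, from -0.67 to -0.44 (mean log2, 18 types). Depth limits the rest, since most replication-dependent genes fell below the minimum in most types.

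For HET over WT, median-of-ratios scaling gave 5 members higher in all 4 layer types and 0.25 for the variant sum in layers. A minimum of 20, which admits more genes, gave a layer median of 0.00 (-0.0030), 5 lower members, and 13 pairs at least 1.5-fold higher and 61 lower. A minimum of 200, with fewer genes, gave 0 and 5 pairs and Hist3h2ba at -0.0466. Cells with at least 2000 molecules gave a median of 0.40, 3 and 17 pairs and 0.36 for the variant sum in layers. Cells with a Y-linked transcript gave 1 member higher, -0.0723 for the variant pairs, 10 pairs lower, H3f3b at -0.0889, -0.67 for the replication-dependent sum, and 0.0398 in layers and 0.0038 over 18 types for the variant sum. Cells with no S or G2/M transcript gave a median of -0.0067 and 7 pairs lower. Subtraction of length decile medians gave a median of -0.0363, 1 lower member, -0.0306 for variant pairs, H2afz at -0.0206 and Hist3h2ba at -0.0521. Chosen after seeing the data, joined layer types gave a median of -0.42, and the replication-dependent sum without Hist1h1e and Hist3h2ba gave -0.85 in layers and -0.68 over 18 types.

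For HOM over WT, median-of-ratios scaling gave Hist1h2ae at 0.0618 and 0.38 for the variant sum in layers. A minimum of 20 gave 2 lower members and 41 pairs at least 1.5-fold higher and 31 lower, and a minimum of 200 gave 4 higher members and 9 and 3 pairs. Cells with at least 2000 molecules gave a median of 0.54, 4 higher members, 8 pairs lower, and 0.64 in layers and 0.41 over 18 types for the variant sum. Cells with a Y-linked transcript gave 2 higher members, 17 and 2 pairs, and 0.23 for the variant sum in layers. Cells with no S or G2/M transcript gave 5 higher members, 4 pairs lower and H2afj at -0.00036. A type probability of at least 0.9 gave Hist1h2ae at 0.00062. Length decile medians gave 1 lower member and 14 pairs higher. The replication-dependent sum without Hist1h1e and Hist3h2ba was -0.22 in layers and 6.7e-05 over 18 types.

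Ganglionic eminence over layer cells was 3.22 (log2, mean of 3 libraries) for the replication-dependent sum when 2000 molecules were required and 0.30 when cells with S or G2/M transcripts were dropped. The variant sum gave 1.66 and 0.75 there and, at a type probability of at least 0.9, 1.47. With 2000 molecules required, the ratio of cells with to cells without a G2/M transcript, over the 4 dividing types, was 2.58 for the replication-dependent and 0.79 for the variant sum (1.51 and 0.46 in all cells).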
